A study of Mus musculus with 25 samples.

Results

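The genes described here are 10 mouse genes of arginine metabolism and alternative macrophage activation, chosen by name: Arg1, Arg2, Ass1, Nos2, Chil3, Retnla, Il4ra, Il10ra, Msr1 and Il10. All 10 were found among the 30749 genes of the table, and all 10 were among the 17216 genes with at least 10 normalised counts in at least 3 libraries, which were the genes tested. Retnla passed that filter only through 3 MDM libraries. Il10 also passed it only through MDM, since among microglia type 1 spontaneous 2 alone reached 10, at 15.9. RNA had been sequenced from cells sorted from mouse glioblastoma, as MDM (monocyte-derived macrophages, which enter the tumour from blood) or as microglia (the resident macrophages of brain). MDM were represented by 2 libraries from type 2 transplanted, 1 from type 2 spontaneous, 4 from type 1 transplanted and 2 from type 1 spontaneous tumours, and microglia by 3 libraries from each of these 4 classes. The labels give no strain, genotype, driver, age, transplant host or sort gate, nor do they say whether the libraries of a group are from different animals. The p-values therefore describe variation among libraries, which may be technical. Libraries are named below by their class, cell type and the number in the library code. A further 4 labelled samples, microglia of normal brain, were not analysed here.

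Macrophages can use arginine along competing routes. Arginase splits it into ornithine and urea, and ornithine feeds polyamine and proline synthesis, whereas inducible nitric oxide synthase turns it into nitric oxide and citrulline. In mouse macrophages, IL-4 and IL-13 act through the IL-4 receptor alpha chain and the transcription factor STAT6 to induce Arg1, Chil3 and Retnla, a response known as alternative activation. Arg1 and Il10 are often used as markers of immunosuppressive tumour macrophages, and Chil3 is also abundant in blood monocytes of the mouse.

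Recovered library totals ran from 26530069 to 50365607 reads. The labelled cell types were checked against their markers, as the mean of log2(normalised count + 1) over each list. The 8 microglia markers averaged 8.30 to 13.4 in MDM libraries and 14.6 to 16.3 in microglia libraries. The 6 markers of monocyte-derived macrophages averaged 12.5 to 13.7 in MDM and 5.59 to 9.998 in microglia libraries. The lists thus separated libraries labelled MDM from those labelled microglia without overlap. Libraries differed within a cell type. The T and NK cell list (13 of 14 markers in the table) averaged 13.4 to 13.8 in MDM of type 1 transplanted tumours, 12.5 in type 2 transplanted MDM 1 and 9.18 to 10.4 in the other 4 MDM libraries, with none of the 13 at 0 in any MDM library. In bulk RNA, fewer cells of a type and less RNA per cell cannot be told apart. Differences were tested with limma-trend on log2(normalised count + 1), with 1 mean for each of the 8 groups and equal weight for each group within a comparison, and genes below 0.05 after Benjamini-Hochberg adjustment across the 17216 genes were called. Fold changes are on that scale, which understates the change of low genes.

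The comparison of MDM with microglia asked which of the 10 genes differed between the cell types across tumour classes. Arg1, Arg2, Ass1 and Chil3 were called and higher in MDM than in microglia. Il10 and Retnla were also called, which makes 6 of 10, but they entered the test only through MDM libraries in which they were high. The calls of Il10 and Retnla are thus not independent of the filter and support nothing here. Over all genes 42.7% were called in this comparison and 23.0% were called higher in MDM. The members' median log2 fold change was 1.92, against 0.07 over all tested genes. That median includes Il10 and Retnla, so it is not independent of the filter either. Of all called genes 53.7% were higher in MDM, and 67.4% with every library at an equal total, a scaling under which the all-gene median was 0.29. Arg1, Arg2, Ass1 and Chil3 kept their call under both other scalings.

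**Figure D1:**
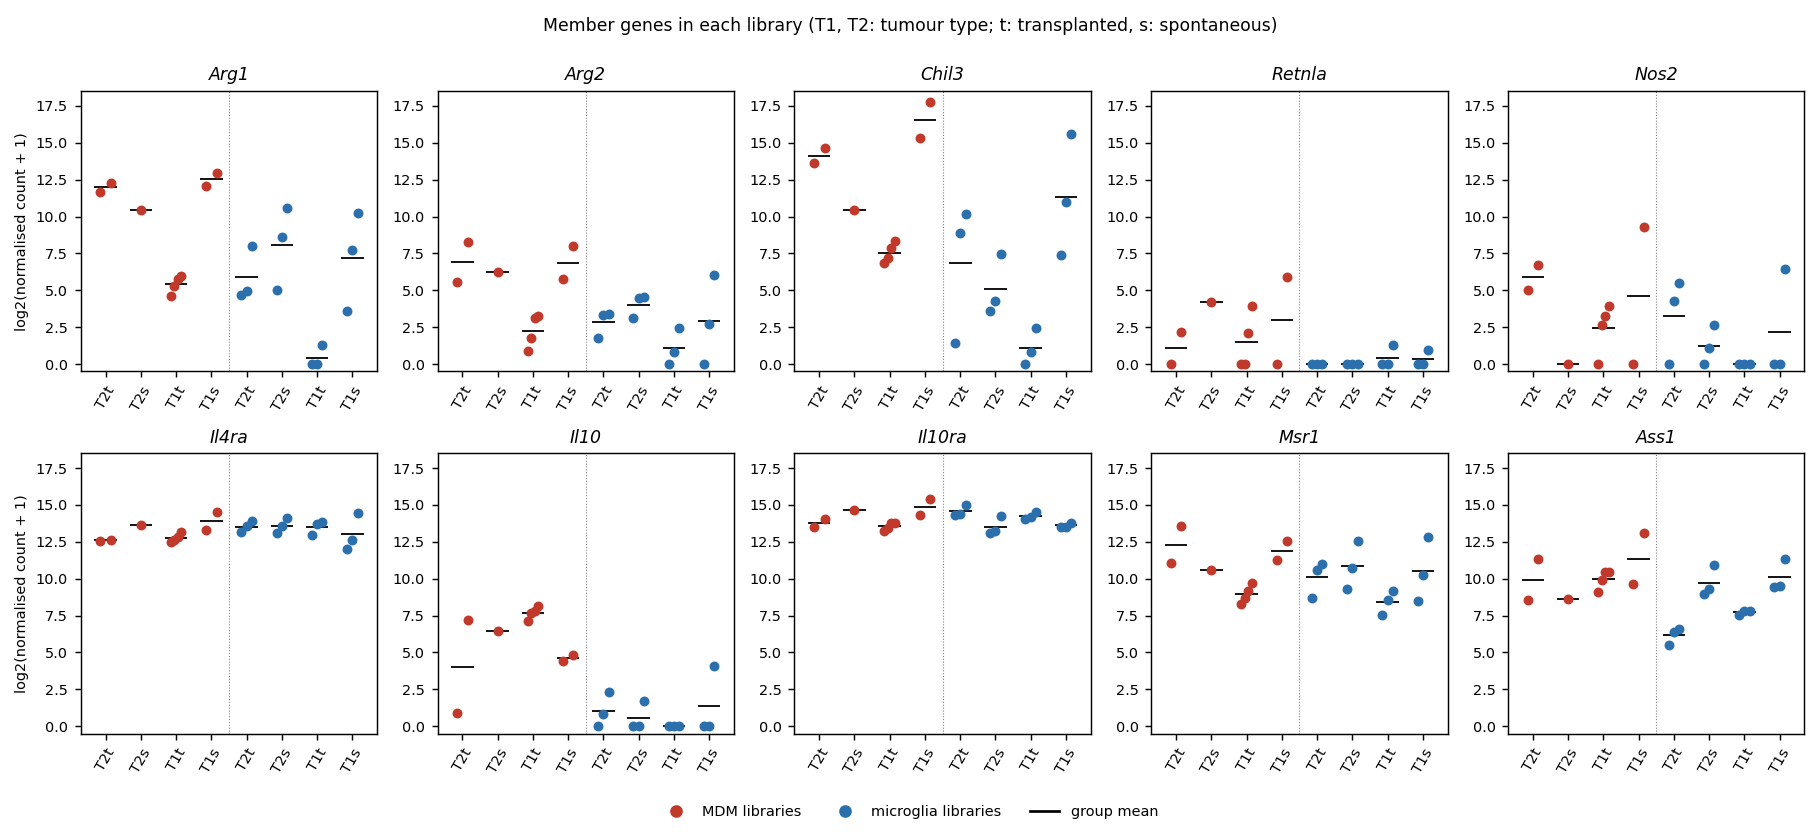
Each panel plots 1 gene as log2(normalised count + 1) on the y axis in the 21 libraries, by group on the x axis (T2t, type 2 transplanted; T2s, type 2 spontaneous; T1t, type 1 transplanted; T1s, type 1 spontaneous), with MDM in red on the left, microglia in blue on the right and a bar at each group mean. Il4ra and Il10ra lie in a narrow band in all groups, whereas Arg1, Chil3 and Il10 range from 0 to their highest values, and Arg1 is low in the 4 type 1 transplanted MDM libraries, where Il10 is high.

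Arg1 encodes the cytosolic arginase and lies on the minus strand of chromosome 10 (GRCm38, 24915221 to 24927484). Its normalised counts in MDM were 3181 and 5047 in type 2 transplanted, 1383 in type 2 spontaneous, 53.6, 23.6, 62.6 and 37.8 in type 1 transplanted, and 4333 and 7912 in type 1 spontaneous tumours. In microglia they were 24.6, 258 and 30.1 in type 2 transplanted, 31.1, 1543 and 394 in type 2 spontaneous, 0, 0 and 1.49 in type 1 transplanted, and 213, 1191 and 11.3 in type 1 spontaneous tumours. The 5 MDM libraries outside the type 1 transplanted class had 1383 or more, a level that 1 microglia library exceeded. The 4 type 1 transplanted MDM libraries overlapped the microglia of the other 3 classes, and type 1 transplanted microglia were lowest. Averaged over the classes, Arg1 was 4.69 ± 0.79 (SE) higher in MDM on the log2 scale (limma-trend, adjusted p = 0.0001), with means of 2448 ± 2849 in MDM and 308 ± 516 in microglia (SD, n = 9 and 12). In each of the 8 pairs of libraries with the same class and number, the MDM library was the higher one.

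The order of the 8 group means of Arg1 ran from type 1 spontaneous MDM through type 2 transplanted MDM, type 2 spontaneous MDM, type 2 spontaneous microglia, type 1 spontaneous microglia, type 2 transplanted microglia and type 1 transplanted MDM to type 1 transplanted microglia. Neighbours in this order overlapped except at 2 steps: the single type 2 spontaneous MDM library lay below both type 2 transplanted ones, and the type 1 transplanted microglia lay below the MDM of their own class. In all, Arg1 spanned 0 to 7912 normalised counts.

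Arg2, the mitochondrial arginase (chromosome 12, 79130777 to 79156301, plus strand), was also lowest among MDM in the type 1 transplanted class. It had 46.5 and 314 normalised counts in type 2 transplanted MDM, 75.0 in type 2 spontaneous MDM, 2.40, 0.873, 7.74 and 8.71 in type 1 transplanted MDM and 52.1 and 254 in type 1 spontaneous MDM. In microglia it ran from 0 to 63.6 with a median of 6.64. MDM outside the type 1 transplanted class had 46.5 or more, which a single microglia library, type 1 spontaneous 2, exceeded. Arg2 was 2.86 ± 0.73 higher in MDM than in microglia on the log2 scale (adjusted p = 0.0037), with the MDM library higher in 7 of 8 pairs.

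Ass1 encodes argininosuccinate synthase, which joins citrulline and aspartate on the way back to arginine (chromosome 2, 31470207 to 31520672, plus strand). In MDM it had 368 and 2564 normalised counts in type 2 transplanted, 385 in type 2 spontaneous, 553, 1397, 1424 and 953 in type 1 transplanted, and 794 and 8702 in type 1 spontaneous tumours. In microglia it had 82.8, 44.2 and 94.99 in type 2 transplanted, 496, 1954 and 644 in type 2 spontaneous, 182, 228 and 224 in type 1 transplanted, and 700, 2539 and 729 in type 1 spontaneous tumours. The microglia of transplanted tumours were the low libraries, below every other library of the series. Ass1 was 1.54 ± 0.46 higher in MDM on the log2 scale (limma-trend, adjusted p = 0.012). The mean over the other classes was 2.43 (limma-trend, adjusted p = 0.00056), in the fit without the single type 2 spontaneous MDM library. That library was also the exception among the 8 pairs, in 7 of which the MDM library was higher.

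Nos2, the inducible nitric oxide synthase (chromosome 11, 78920787 to 78960254, plus strand), was at 0 in 3 of 9 MDM and 7 of 12 microglia libraries. Its normalised counts in MDM were 32.2 and 105 in type 2 transplanted, 0 in type 2 spontaneous, 0, 5.24, 8.39 and 14.5 in type 1 transplanted, and 0 and 621 in type 1 spontaneous tumours. In microglia they were 18.0, 0 and 43.5 in type 2 transplanted, 0, 1.15 and 5.13 in type 2 spontaneous, 0 in all 3 type 1 transplanted, and 0, 87.9 and 0 in type 1 spontaneous tumours. In each cell type the highest library was type 1 spontaneous 2, while the other libraries of that class were at 0. The difference between MDM and microglia was 1.59 ± 1.17 on the log2 scale and not called (adjusted p = 0.29), although it was 2.75 without type 1 spontaneous MDM 1 (adjusted p = 0.034).

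Chil3 encodes a secreted chitinase-like protein also known as Ym1, and Retnla encodes the secreted protein RELM-alpha, also known as Fizz1. Both are classic IL-4 response genes of the mouse, so their promoters are shown here, beside the levels, with any match to the palindromes that STAT6 and other STAT factors are known to bind. The sequences are RefSeq promoters of build GRCm38.p6, 300 bases around the gene start, read 5′ to 3′ on the gene's strand. Capitals mark a match to TTCNNNNGAA, the STAT6-type palindrome, in Retnla, and a match to TTCNNNGAA, the palindrome of other STAT factors, in Chil3.
Chil3 (chr3:106167515-106167814, minus strand): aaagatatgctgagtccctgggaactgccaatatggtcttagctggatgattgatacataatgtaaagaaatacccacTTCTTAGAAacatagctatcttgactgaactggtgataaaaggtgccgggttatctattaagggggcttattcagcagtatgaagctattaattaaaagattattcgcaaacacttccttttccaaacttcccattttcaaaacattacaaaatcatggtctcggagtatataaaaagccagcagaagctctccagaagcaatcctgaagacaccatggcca
Retnla (chr16:48842359-48842658, plus strand): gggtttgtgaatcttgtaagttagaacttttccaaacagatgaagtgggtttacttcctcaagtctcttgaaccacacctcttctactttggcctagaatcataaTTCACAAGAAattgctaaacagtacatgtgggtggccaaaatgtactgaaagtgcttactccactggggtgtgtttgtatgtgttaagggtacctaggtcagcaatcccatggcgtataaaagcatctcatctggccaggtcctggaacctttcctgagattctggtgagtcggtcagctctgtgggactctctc
The match in Retnla, TTCACAAGAA, starts 145 bases before the gene start. Both motifs are palindromes, so 1 search covers both strands, and each of these promoters held 1 match of its motif and 0 of the other, so no matches overlapped. The STAT6-type motif was found in 6.95% and the other in 8.30% of the 32851 RefSeq promoters of the same length. Promoters were matched for 4 of the 10 genes, and those of Ass1 and Il4ra held neither motif. A match describes the letters and shows no binding.

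In MDM, Chil3 had 12382 and 25300.3 normalised counts in type 2 transplanted, 1423 in type 2 spontaneous, 142, 112, 231 and 323 in type 1 transplanted, and 41610.4 and 219838 in type 1 spontaneous tumours. In microglia it had 1.64, 1159 and 467 in type 2 transplanted, 18.2, 173 and 11.1 in type 2 spontaneous, 0, 4.38 and 0.745 in type 1 transplanted, and 2017, 49273 and 169 in type 1 spontaneous tumours. Both libraries of type 1 spontaneous 2 were the highest of their cell type, and that microglia library exceeded all MDM libraries but 1. Chil3 was 6.09 ± 1.09 higher in MDM on the log2 scale (limma-trend, adjusted p = 0.00017), and the MDM library was higher in 8 of 8 pairs. The monocyte list (7 of 7 markers in the table, Chil3 itself left out) averaged 14.1 in type 1 spontaneous MDM 2, 13.7 in type 2 transplanted MDM 3 and 9.93 to 12.1 in the other 7 MDM libraries, and 11.2 in type 1 spontaneous microglia 2 against 3.52 to 8.70 in the other 11 microglia libraries. The MDM libraries with list means of 14.1 and 13.7 had Chil3 counts of 219838 and 25300.3. Those with list means of 11.1 and 11.04, type 1 transplanted MDM 4 and type 1 spontaneous MDM 1, had Chil3 counts of 323 and 41610.4. The part of monocyte transcripts in the Chil3 values was not tested. The neutrophil list averaged 3.38 in type 1 spontaneous microglia 2 and was highest, at 7.56, in type 2 transplanted microglia 2, which had 1159 normalised counts of Chil3. The part of neutrophil transcripts was not tested either.

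Retnla was barely counted in microglia. In MDM it had 3.58 and 0 normalised counts in type 2 transplanted, 17.2 in type 2 spontaneous, 14.4, 0, 3.23 and 0 in type 1 transplanted, and 0 and 59.8 in type 1 spontaneous tumours. It had 1.46 in type 1 transplanted microglia 2, 0.935 in type 1 spontaneous microglia 2 and 0 in the other 10 microglia libraries. With 88 reads in 9 MDM and 2 reads in 12 microglia libraries, the ratio of normalised levels was 52.2 (95% exact counting interval 14.02 to 437, counting error only). The interval does not cover variation among libraries, and 46 of the 88 reads were from type 1 spontaneous MDM 2. Retnla passed the filter only through MDM libraries, so the ratio describes the reads and supports no difference between the cell types. In 4 of 9 MDM libraries no read was counted, so the ranges overlapped.

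**Figure D2:**
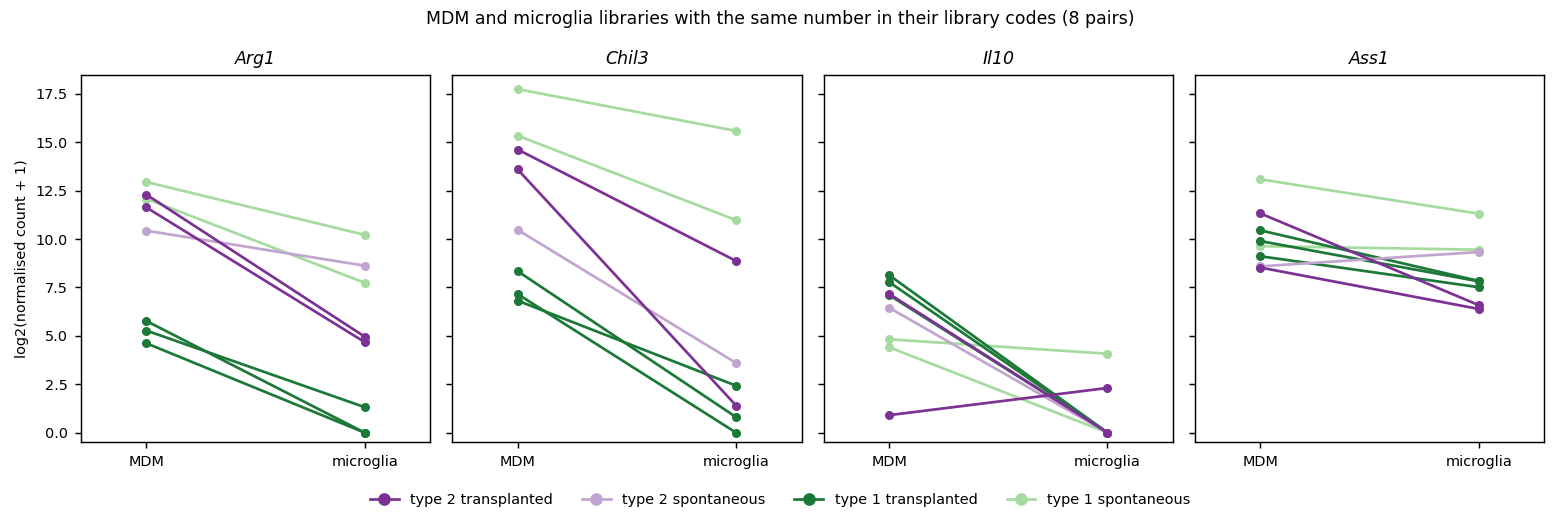
Lines join the MDM library (left) and the microglia library (right) with the same class and number, for 4 genes, on a log2(normalised count + 1) axis, coloured by tumour class. Arg1 and Chil3 are higher in MDM in 8 of 8 pairs, and Il10 and Ass1 in 7 of 8.

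Il10, the anti-inflammatory cytokine interleukin 10 (chromosome 1, 131019845 to 131024974, plus strand), had a pattern across MDM unlike that of Arg1. Its normalised counts in MDM were 143 and 0.873 in type 2 transplanted, 86.8 in type 2 spontaneous, 137, 281, 204 and 219 in type 1 transplanted, and 20.4 and 27.3 in type 1 spontaneous tumours. In microglia they were 0, 0.762 and 3.96 in type 2 transplanted, 0, 2.31 and 0 in type 2 spontaneous, 0 in all 3 type 1 transplanted, and 0, 15.9 and 0 in type 1 spontaneous tumours. MDM of type 1 transplanted tumours, which were lowest for Arg1 among MDM, were highest for Il10 as a group. Il10 was 4.95 ± 0.75 higher in MDM than in microglia on the log2 scale (limma-trend, adjusted p = 3e-05), with 7 of 8 pairs in that direction. Since Il10 passed the filter only through MDM libraries, its calls in MDM against microglia are not independent of that filter. The 5 MDM libraries with most T and NK cell transcripts had 137 to 281 normalised counts of Il10 and the other 4 had 0.873 to 86.8. Without these 5 libraries the difference from microglia was 3.00. That value leaves type 1 transplanted tumours out of the mean over classes, keeps 1 type 2 transplanted MDM library, and rests on the same filter.

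**Figure D3:**
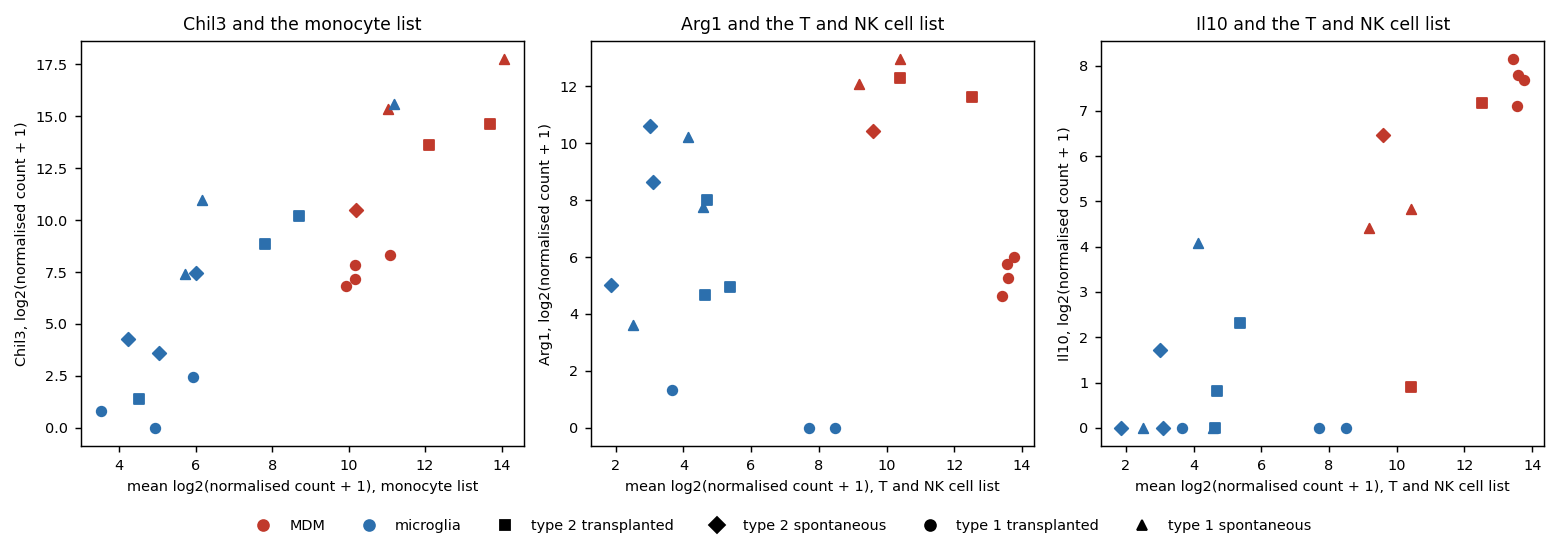
Each point is 1 library, with the mean log2(normalised count + 1) of a marker list on the x axis and log2(normalised count + 1) of a gene on the y axis, MDM in red, microglia in blue and tumour class by symbol. Chil3 is highest in the library with the highest monocyte list mean, 14.1, and Il10 is 137 or more normalised counts in the 5 MDM libraries with a T and NK cell list mean of 12.5 or more, where Arg1 is low in 4 of 5.

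Il10ra, the ligand-binding chain of the interleukin 10 receptor (chromosome 9, 45253837 to 45269149, minus strand), was abundant in all 21 libraries, at 8705 to 43052 normalised counts. In MDM it had 11393 and 16754 in type 2 transplanted, 25646 in type 2 spontaneous, 11022, 9634, 14037 and 14184 in type 1 transplanted, and 20407 and 43052 in type 1 spontaneous tumours. In microglia it had 21123, 32864 and 20506 in type 2 transplanted, 9489, 8705 and 19371 in type 2 spontaneous, 16738, 18751 and 23284 in type 1 transplanted, and 11629, 14322 and 11829 in type 1 spontaneous tumours. MDM were thus below microglia without overlap in both transplanted classes and above them without overlap in both spontaneous classes. The mean difference over classes was 0.22 ± 0.19 on the log2 scale and not called (adjusted p = 0.38).

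Il4ra encodes the IL-4 receptor alpha chain (chromosome 7, 125552120 to 125579474, plus strand). In MDM the lowest, median and highest normalised counts were 5703, 7360 and 23955, against 4088, 12187 and 22588 in microglia. The ranges overlapped almost fully and the difference was -0.18 ± 0.28 on the log2 scale (adjusted p = 0.64), a value that was 0.06 with equal library totals. Msr1, the macrophage scavenger receptor CD204 (chromosome 8, 39581685 to 39642673, minus strand), had 311, 1539 and 12355 as lowest, median and highest normalised counts in MDM, against 187, 932 and 7216 in microglia. Its highest MDM library was type 2 transplanted 3 and its highest microglia library type 1 spontaneous 2. The difference of 0.97 ± 0.56 was not called (adjusted p = 0.17), but was 1.26 without type 1 spontaneous microglia 2 (adjusted p = 0.043).

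Per kilobase of merged exon, the median normalised counts in MDM were highest for Il10ra (4055), followed by Il4ra (1226), Chil3 (872), Arg1 (621), Ass1 (395), Msr1 (243), Il10 (104), Arg2 (32.5), Retnla (5.39) and Nos2 (1.90). In microglia the order of the median levels per kilobase was Il10ra (5073), Il4ra (2030), Ass1 (150), Msr1 (147), Chil3 (57.4), Arg1 (13.7) and Arg2 (4.65), with medians of 0 for Il10, Retnla and Nos2. These medians pool tumour classes that differ widely for Chil3 and Arg1, and 4 of the 9 MDM libraries are type 1 transplanted.

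Within single tumour classes fewer members were called. The calls of Il10 in single classes, as over all classes, are not independent of the filter, which Il10 passed only through MDM libraries. In type 2 transplanted tumours 3 of 10 were called, all higher in MDM, against 18.0% of all genes (9.52% higher). These were Arg1 (6.08 ± 1.53 on the log2 scale, adjusted p = 0.011), Chil3 (7.29 ± 2.10, adjusted p = 0.022) and Ass1 (3.77 ± 0.89, adjusted p = 0.0074). The call of Arg1 was lost without MDM 1 (adjusted p = 0.066) or MDM 3 (0.059), that of Chil3 without MDM 1 (0.098), MDM 3 (0.1) or microglia 1 (4.59, 0.096), and that of Ass1 without MDM 3 (2.37, 0.13). In type 2 spontaneous tumours, with a single MDM library that is assumed to vary like the other groups, Il10 alone was called (adjusted p = 0.045), against 10.7% of all genes (4.97% higher, which is 46.45% of called genes and 57.7% with equal library totals). From 81 reads in MDM and 2 in microglia the ratio was 122 (95% exact counting interval 32.7 to 1023), and the call was lost without microglia 1 (adjusted p = 0.095) or microglia 3 (0.08).

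In type 1 transplanted tumours 4 of 10 members were called, all higher in MDM, against 34.1% of all genes (18.2% higher, which is 53.4% of called genes and 75.2% with equal library totals, where the all-gene median was 0.70). Il10 was at 0 in all 3 microglia libraries and at a mean of 210 ± 59.3 in MDM (SD, n = 4). That is at least 63.9-fold higher with microglia set to 3 reads in each library (limma-trend, adjusted p = 7e-05). This call of Il10, too, is not independent of the filter. Arg1 had 243 reads in MDM and 2 in microglia, a ratio of 67.3 (95% exact counting interval 18.4 to 559, adjusted p = 0.0052), and Chil3 was 6.47 ± 1.76 higher (adjusted p = 0.0076). Ass1 was 2.26 ± 0.75 higher (adjusted p = 0.024), a call lost without MDM 2 (adjusted p = 0.06), MDM 3 (0.062), microglia 1 (0.074), microglia 2 (0.055) or microglia 4 (0.054). Microglia 1 and 2 carried T and NK cell list means of 7.72 and 8.49 against 3.66 in microglia 4. Without these and type 1 spontaneous microglia 2, only microglia 4 was left in its group. The differences were then 4.10 for Arg1, against 4.98 with all libraries, 6.74 for Chil3 and 2.17 for Ass1, and these calls were lost. With voom the differences were 5.53 (adjusted p = 0.12) for Arg1, 7.08 (0.28) for Chil3 and 2.27 (0.092) for Ass1. By limma-trend Arg1 was 2.56 (0.093) with pseudocount 8 and 1.88 (0.14) on the deposited values, and Chil3 3.26 (0.068) on the latter. In type 1 spontaneous tumours Arg1 (5.32 ± 1.53, adjusted p = 0.028) and Il10ra (1.24 ± 0.37, adjusted p = 0.033) were called higher in MDM, 2 of 10 against 13.4% of all genes (8.52% higher, which is 63.7% of called genes and 51.0% with quantile normalization). Arg1 lost its call without MDM 1 (0.057), MDM 2 (0.23) or microglia 3 (3.53, 0.12), and Il10ra without MDM 2 (0.70, 0.44), microglia 1 (0.081) or microglia 3 (0.085). These class comparisons use the libraries of the comparison over all classes.

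**Figure D4:**
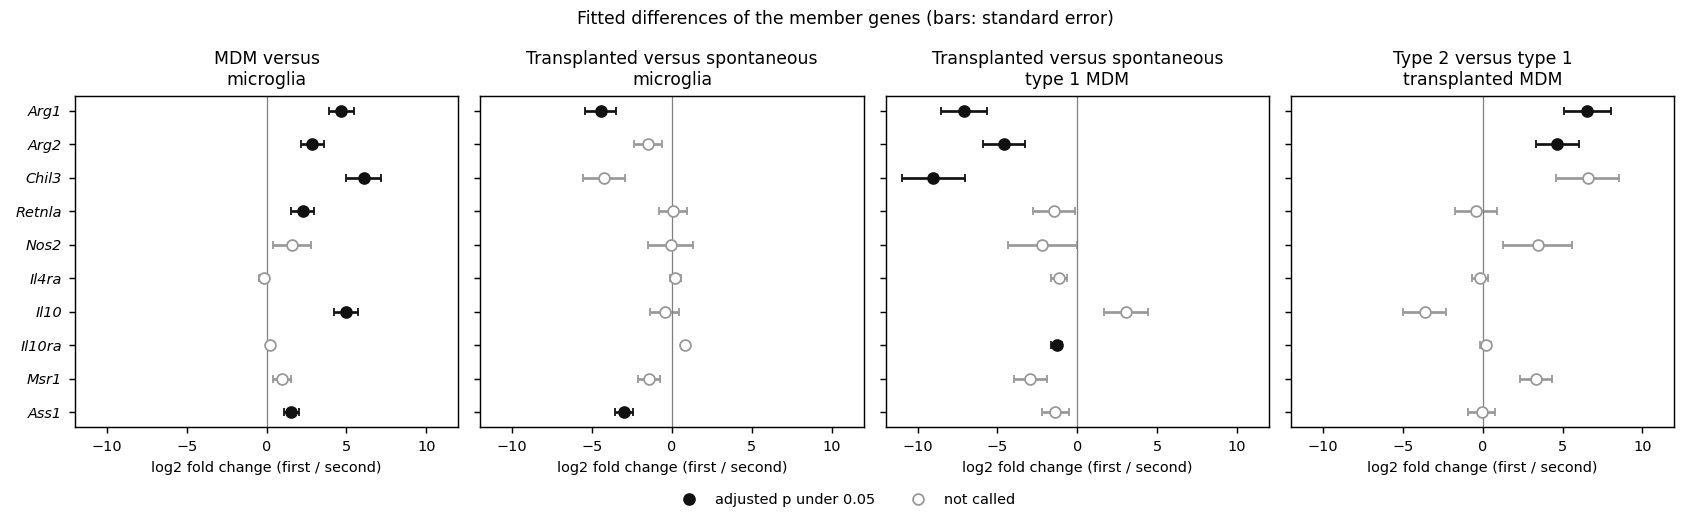
Fitted log2 fold changes of the 10 genes (x axis) with standard errors in 4 comparisons, as the first named group over the second; filled points have an adjusted p under 0.05 over all 17216 genes. Called members are all above 0 for MDM over microglia (6, with Il10 and Retnla, which passed the filter only through MDM) and for type 2 over type 1 transplanted MDM (2), and all below 0 for transplanted over spontaneous microglia (2) and transplanted over spontaneous type 1 MDM (4).

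The comparison of transplanted with spontaneous tumours in microglia asked whether the model changed these genes in the resident cells. Ass1 and Arg1 fell, 2 of 10 members, against 1.84% of all genes called and 0.836% called lower. Of called genes 54.6% were higher, and 64.8% with equal library totals, where the all-gene median was 0.17. The members' median log2 fold change was -0.94, against 0.04 over all tested genes. Ass1 had 44.2, 138 and 228 as lowest, median and highest normalised counts in transplanted and 496, 714 and 2539 in spontaneous microglia (n = 6 each), with no overlap, a log2 difference of -2.98 ± 0.56 (limma-trend, adjusted p = 0.011). This call was kept in each of the 12 fits that left out 1 microglia library, with an adjusted p of 0.086 when type 1 spontaneous 2 and type 1 transplanted 1 and 2 were left out together and 0.082 with voom. Arg1 had 0, 13.04 and 258 in transplanted and 11.3, 304 and 1543 in spontaneous microglia, which overlapped, with a difference of -4.47 ± 0.97 (adjusted p = 0.025). Its call was lost without type 1 transplanted microglia 1 (adjusted p = 0.058), type 2 spontaneous microglia 2 (0.075), type 2 transplanted microglia 1 (0.063) or type 2 transplanted microglia 3 (0.057), and with voom (0.1). Of the genes not called, Chil3 differed by -4.27 ± 1.33 (adjusted p = 0.1) and Il10ra by 0.84 ± 0.23 (adjusted p = 0.07). Il10ra was called without type 2 spontaneous microglia 3 (1.02, adjusted p = 0.013) and under both other scalings (0.91, 0.034 with quantile normalization and 0.99, 0.042 with equal totals). The list of monocyte-derived macrophage markers averaged 5.59 to 8.36 in transplanted and 6.26 to 9.998 in spontaneous microglia, with none of its 6 markers at 0 in any library, and its part in these differences was not tested.

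Between tumour types, no member was called in microglia of type 2 against type 1 tumours by limma-trend or by voom on the recovered reads, against 0.470% of all genes by limma-trend. Of the members 1 had an unadjusted p under 0.05. It was Arg1, with 24.6, 145 and 1543 as lowest, median and highest normalised counts in type 2 and 0, 6.39 and 1191 in type 1 microglia, a log2 difference of 3.16 ± 0.97 (adjusted p = 0.24). The ranges overlapped.

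In MDM of transplanted tumours, type 2 was compared with type 1, with 2 libraries against 4. Arg1 and Arg2 rose in type 2, 2 of 10 members, against 5.91% of all genes called and 2.96% called higher, and the members' median was 1.77 against -0.03 over all tested genes. With equal library totals the all-gene median was -0.29 and 29.5% of called genes were higher, against 50% in the authors' scaling. Arg1 averaged 4114 ± 1320 in type 2 and 44.4 ± 17.3 in type 1 libraries (SD), without overlap, a log2 difference of 6.55 ± 1.45 (limma-trend, adjusted p = 0.013, and 0.21 without type 2 transplanted MDM 3). Arg2 averaged 180 ± 189 and 4.93 ± 3.88, also without overlap, a difference of 4.67 ± 1.33 (adjusted p = 0.046). Its call was lost without type 2 transplanted MDM 3 (3.30, adjusted p = 0.57) or any one of type 1 transplanted MDM 1 (0.076), 2 (0.11), 3 (0.074) and 4 (0.055). Chil3 (6.57 ± 1.99) and Msr1 (3.35 ± 1.02) each had an adjusted p of 0.058 and groups that did not overlap, and Msr1 reached 0.024 without type 2 transplanted MDM 1. Il10 was -3.64 ± 1.37 (adjusted p = 0.12), and was called without type 2 transplanted MDM 1 (adjusted p = 0.0038), where the remaining type 2 library had 1 read. With voom on the recovered reads Chil3 (adjusted p = 0.031), Msr1 (0.048) and Il10 (0.048) were called. Several marker lists separated these groups without overlap. The T and NK cell list averaged 10.4 and 12.5 in the type 2 and 13.4 to 13.8 in the type 1 libraries. The microglia list averaged 10.2 to 13.4 in type 2 and 8.30 to 9.88 in type 1, the monocyte list 12.1 to 13.7 and 9.93 to 11.1, and the border-associated macrophage list 5.09 to 5.85 and 2.72 to 3.82. The part of any of these in the differences was not tested.

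In MDM of type 1 tumours, transplanted was compared with spontaneous, with 4 libraries against 2, of which the 4 are those of the preceding comparison. Arg1, Arg2, Chil3 and Il10ra fell, 4 of 10 members, against 13.7% of all genes called and 7.96% called lower, and the members' median was -1.82 against 0.03 over all tested genes. With the same total per library the median of all genes was 0.54 and 75.5% of called genes were higher, against 42.1% in the authors' scaling. Arg1 averaged 44.4 ± 17.3 in transplanted and 6122 ± 2531 in spontaneous MDM (-7.10 ± 1.45, limma-trend, adjusted p = 0.0032). Chil3 averaged 202 ± 95.4 in transplanted and 130724 ± 126026 in spontaneous MDM (-9.00 ± 1.99, adjusted p = 0.0055). Arg2 (-4.59 ± 1.33, adjusted p = 0.028) and Il10ra (-1.30 ± 0.35, adjusted p = 0.019) were also without overlap between the groups. Without type 1 spontaneous MDM 2 all 4 calls were lost, with adjusted p of 0.052 for Arg1, 0.097 for Chil3, 0.31 for Arg2 and 0.36 for Il10ra, whose difference was then -0.76. Arg2 lost its call also without type 1 transplanted MDM 1 (0.059) or 2 (0.073), and Il10ra without type 1 transplanted MDM 2 (0.052) and under scaling to the same total (-0.76, adjusted p = 0.14) or quantile normalization (-0.70, 0.16). Il10 was 3.06 ± 1.37 in the opposite direction, with 210 ± 59.3 in transplanted and 23.8 ± 4.92 in spontaneous MDM and no overlap, and was not called (adjusted p = 0.16). Several marker lists separated these groups without overlap. The T and NK cell list averaged 13.4 to 13.8 in transplanted and 9.18 to 10.4 in spontaneous MDM, and the microglia list 8.30 to 9.88 and 11.6 to 13.2. The B cell list averaged 9.94 to 11.1 and 4.26 to 6.57, and the border-associated macrophage list 2.72 to 3.82 and 5.69 to 6.37. The part of any marker list in these differences was not tested.

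Whether the difference between MDM and microglia itself depended on the tumour was tested as an interaction. By model, Il10ra was called, 1 of 10 members against 2.24% of all genes (43.6% of them higher, and 66.9% with equal library totals): the log2 difference between MDM and microglia was lower by 1.94 ± 0.38 in transplanted than in spontaneous tumours (-1.94, limma-trend, adjusted p = 0.013). MDM minus microglia was -0.81 ± 0.37 in type 2 transplanted and -0.69 ± 0.31 in type 1 transplanted tumours, and 1.13 ± 0.47 in type 2 spontaneous and 1.24 ± 0.37 in type 1 spontaneous tumours. This call was kept in the 20 leave-one-out fits that gave a value, and under both other scalings. The fit without the single type 2 spontaneous MDM library gave none, since it empties that group. The fit without the 5 MDM libraries rich in T and NK cell transcripts gave none either. Their list averaged 13.4 to 13.8 in type 1 and 10.4 and 12.5 in type 2 transplanted MDM. It averaged 9.18 to 10.4 in type 1 and 9.60 in type 2 spontaneous MDM, and its part was not tested. By tumour type, 0 of 10 members were called by limma-trend or by voom, and 0 had an unadjusted p under 0.05, against 0.0871% of all genes called. The interaction of tumour type and model in microglia had 0 of 10 members called by either tool and 2 with an unadjusted p under 0.05, against 0.0116% of all genes called. Chil3 was one of these, at 11.97 ± 2.65 (adjusted p = 0.2, and 0.016 without type 2 transplanted microglia 1), and Arg1 the other, at 4.56 ± 1.94 (adjusted p = 0.71).

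Other genes of the same pathways were counted from lists, with the members left out. The counts for MDM against microglia stand beside 42.7% of all genes called and 23.0% called higher. In MDM against microglia, 14 of 20 tested genes of IL-4 and IL-13 signalling were higher and 2 lower, with a median log2 fold change of 0.93. They included the transcription factors Klf4 (3.73 ± 0.36, adjusted p = 1.9e-07) and Pparg (5.09 ± 0.62, 2.9e-06), the feedback inhibitor Cish (3.64 ± 0.40, 9.5e-07) and Il2rg, the common gamma chain (1.54 ± 0.22, 1.5e-05). Of 21 other alternative activation genes, F13a1 among them being also a monocyte marker, 12 were higher and 5 lower (median 1.74), among them the lectin Clec10a (7.69 ± 0.71, 1.2e-07), the adhesion molecule Cdh1 (8.38 ± 0.93, 9.6e-07), the chemokine Ccl17 (6.26 ± 0.75, 2.2e-06) and, lower in MDM, the lipid receptor Trem2 (-3.35 ± 0.32, 1.6e-07). Trem2 is also a gene of microglia. The dendritic cell list averaged 9.67 to 11.2 in MDM and 5.51 to 8.15 in microglia libraries. The T and NK cell list averaged 9.18 to 13.8 in MDM and 1.87 to 8.49 in microglia libraries. The part of either in the differences of these list genes was not tested.

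Classical activation genes were higher in 9 and lower in 4 of 23 (median 0.50), with the interferon Ifng at 5.94 ± 0.87 (adjusted p = 2.1e-05) and the formyl peptide receptor Fpr2 at 4.38 ± 0.68 (3.8e-05). Ifng is a product of T and NK cells, whose markers were higher in MDM libraries. Of 24 genes of arginine and polyamine metabolism 7 were higher and 7 lower (median 0.08). The lower ones included the arginine exporter subunit Slc7a7 (-2.07 ± 0.18, limma-trend, adjusted p = 6.2e-08) and Ddah2 (-2.47 ± 0.25, 3.5e-07). IL-10 signalling had 6 higher and 2 lower of 12 (median 0.82), with the IL-10 signal transducer Stat3 at 1.06 ± 0.23 (0.00088). Scavenger receptors had 2 higher and 4 lower of 15 (median 0.31), with the haemoglobin receptor Cd163 at 4.31 ± 0.83 (0.00036) and the lysosomal Cd68 at -1.24 ± 0.26 (0.00076). The scavenger receptors, with 6 of 15 called, were near the share over all genes. The median over all tested genes was 0.07.

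In microglia of transplanted against spontaneous tumours, 1.84% of all genes were called and 0.836% were called lower. Of 23 classical activation genes 3 rose, among them the chemokine Cxcl9 (3.56 ± 0.52, limma-trend, adjusted p = 0.0013) and the interferon response factor Irf1 (1.35 ± 0.27, 0.015). The matrix gene Fn1 fell (-3.83 ± 0.82, 0.024), as 1 of 21 alternative activation genes. The scavenger receptor Colec12 fell (-4.30 ± 0.86, adjusted p = 0.015), as 1 of 15. In type 2 against type 1 microglia, where 0.470% of all genes were called, the only called gene of these lists was Cxcl9 (-2.40 ± 0.52, limma-trend, adjusted p = 0.046).

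In MDM of transplanted tumours, type 2 against type 1, 5.91% of all genes were called and 2.96% were called higher. Of 21 other alternative activation genes 4 rose and none fell (median 2.00). They were the chemokine Ccl24 (6.37 ± 1.01, limma-trend, adjusted p = 0.0018), Trem2 (3.36 ± 0.58, 0.0029), the beta-glucan receptor Clec7a (2.07 ± 0.38, 0.0049) and the mannose receptor Mrc1 (3.83 ± 0.73, 0.0056). Trem2 is a gene of microglia and Mrc1 one of border-associated macrophages, whose lists averaged 10.2 to 13.4 and 5.09 to 5.85 in type 2 against 8.30 to 9.88 and 2.72 to 3.82 in type 1 libraries, and the part of either was not tested. Of 20 genes of IL-4 and IL-13 signalling 0 rose and 2 fell, one of them Il4 itself, which averaged 1.03 ± 0.23 normalised counts in type 2 and 59.5 ± 62.5 in type 1 libraries (SD, limma-trend, adjusted p = 0.0094). Il4 is a product of T cells, mast cells and related cells. In type 1 MDM of transplanted against spontaneous tumours, 13.7% of all genes were called and 7.96% were called lower. Of 21 alternative activation genes 6 fell and none rose (median -2.31), with Fn1 at -5.98 ± 1.23 (limma-trend, adjusted p = 0.0033) and Trem2 at -3.42 ± 0.58 (0.00081). Of 24 arginine and polyamine genes 4 fell and 2 rose, with the polyamine synthesis enzyme Odc1 higher (2.06 ± 0.35, 0.00074) and Slc7a7 (-2.94 ± 0.32, 3.6e-05) and the spermine oxidase Smox (-2.27 ± 0.57, 0.012) lower. These 2 comparisons share their 4 type 1 transplanted libraries.

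Across the 21 libraries the log2 level of Arg1 correlated with that of Arg2 (Pearson's r = 0.86), Chil3 (0.85) and Msr1 (0.80), a description only, since the libraries share groups and scaling. Among the 9 MDM libraries the same correlations were 0.93, 0.95 and 0.90, and Il10 ran against Arg1 (-0.73) and Msr1 (-0.89), whereas among the 12 microglia libraries, 8 of them at 0 for Il10, these were 0.55 and 0.73. Of 11182 genes with a mean of at least 50 normalised counts, the 5 most like Arg1 were Eps8 (r = 0.87), Tgfbi (0.86), Slfn4 (0.86), F13a1 (0.86) and Emp1 (0.86). The 5 most like Chil3 were Slfn4 (0.94), Cd177 (0.90), Mmp8 (0.88), Gda (0.88) and F13a1 (0.88), of which F13a1 and Cd177 are in the monocyte list and Mmp8 in the neutrophil list. The 5 most like Nos2, of 11183 genes, were Dmkn (0.83), Ifi209 (0.83), Zbp1 (0.79), Dnaja2 (0.79) and Parp11 (0.79).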

How the data were processed

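RNA was extracted with TRIzol and miRNeasy Micro kits and amplified with SMART-Seq v4, per the labels' protocols. The submitters' processing notes name STAR 2.7.8a, the build mm10 and DESeq2, whose version is not given in the sources used here. The deposited values are log2-like, lowest at 4.22 where no read was counted, and have the form of the authors' variance-stabilising transformation of DESeq2. Inverting it gave whole reads for 100% of values (tolerance 1e-06). The design had assumed normalised counts, and the test on log2 values was kept. Normalised counts are these reads divided by the authors' size factors.

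limma-trend (limma 3.58.1, R 4.3.3) was fitted to log2(normalised count + 1) with Benjamini-Hochberg adjustment over 17216 genes, and the method was tested on simulated libraries. Tables and figures were made with matplotlib 3.10.9, scipy 1.17.1, pandas 2.3.3, numpy 2.4.6 and python 3.11.15. Each comparison weights its groups equally. The members, gene lists, marker lists and tests were chosen with earlier results of these data known. Genes named are the 10 members, up to 4 genes of each list with the smallest p in a comparison, and the 5 most correlated with Arg1, Chil3 and Nos2 (mean of at least 50, unnamed genes and receptor segments left out). Gene positions and exon lengths are from GENCODE M21 and promoters from RefSeq. Strand of counting is not given in the sources used here, so overlapping genes may share reads. Alternatives were another pseudocount, other filters and scalings, array weights, fits to fewer groups, voom, the deposited values, a replicate block and libraries left out. One gene of the lists is counted but not reported by name here.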

Additional observations from a re-analysis of the deposited data

Results flagged for a closer look

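Il10ra, the interleukin 10 receptor chain, differed between the models in how MDM compared with microglia, by a test of the difference itself. The interaction of cell type and model was -1.94 ± 0.38 on the log2 scale (limma-trend, adjusted p = 0.013). MDM were below microglia in both transplanted classes (-0.81 in type 2 and -0.69 in type 1) and above them in both spontaneous classes (1.13 and 1.24), of which type 2 spontaneous has a single MDM library. Over all alternatives that gave a value the interaction lay between -2.20 and -1.67, with adjusted p from 0.0029 to 0.036. No member had a library far from the others in type 1 transplanted MDM, the only group of at least 4 libraries.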

How the results depend on the processing

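Of 831 values of members under alternatives, over 37 results, 719 kept direction and side of the threshold, 81 kept direction but lost the call, 27 gained a call and 4 changed sign. In MDM against microglia the calls of Arg1, Arg2, Ass1 and Chil3 held in all 33 alternatives. That of Il10 did too, but Il10 passed the filter of the main fit only through MDM libraries. Retnla had a value in 27, the others failing the filter, so its calls say nothing of stability. The sign changes were in differences that were not called: Il4ra, at -0.18, became 0.0587 with equal totals, 0.0143 without the 5 MDM libraries rich in T and NK cell transcripts, and -0.328 to 0.00314 leaving out single libraries, and Il10ra, at 0.22, was -0.0852 without type 2 spontaneous MDM 3 and at most 0.354 leaving out another single library, and over all alternatives reached 0.614. Leaving out the 5 MDM libraries took type 1 transplanted tumours out of the mean over classes. Leaving out type 2 spontaneous MDM 3 took out type 2 spontaneous tumours. Those values are thus means over fewer classes. Causes were not tested.

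Members called in type 1 spontaneous tumours (2) were 0 without a filter, 1 with quantile normalization, 0 in a fit of these groups alone, 4 on deposited values, 6 without the 3 microglia libraries rich in other transcripts and 0 to 6 leaving out single libraries. In type 1 transplanted tumours (4) they were 2 on deposited values, 1 with voom and 1 without those 3 libraries. In type 2 spontaneous tumours (1) they were 0 without a filter, 2 with array weights and 0 to 1 leaving out single libraries. In type 2 transplanted tumours (3) they were 1 in a fit of these groups alone, 1 without the 5 MDM libraries and 1 to 3 leaving out single libraries. For transplanted against spontaneous microglia (2) they were 1 with pseudocount 8, without a filter, in a fit of these groups alone and on deposited values, 4 with array weights, 0 with voom and without the 3 libraries, and 1 to 3 leaving out single libraries. For type 2 against type 1 transplanted MDM (2) they were 5 with pseudocount 8, on deposited values and with voom, 4 with quantile normalization, 1 without a filter and with array weights, and 0 to 4 leaving out single libraries. For transplanted against spontaneous type 1 MDM (4) the range leaving out single libraries was 0 to 6. The interaction of cell type and model (1) had 2 with array weights and 1 to 2 leaving out single libraries, and that of tumour type and model in microglia (0) had 0 to 1. Leaving out both libraries of type 1 spontaneous number 2, an alternative chosen after seeing the data, gave 0 in type 1 spontaneous tumours, 1 for the type 1 MDM and 2 for the interaction of cell type and model.

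Same-numbered MDM and microglia libraries deviated together only weakly (r from 0.035 to 0.24 over 7 pairs), although each MDM library correlated best with its own number. The sample titles number some libraries differently from the library codes. Whether the numbers pair the libraries is thus not known, and the main fits did not use them as pairs. The replicate block differed by comparison. For MDM against microglia and its interactions, libraries of the same class and number were fitted as correlated. Then 6 members were called over all classes and 4 in type 2 transplanted tumours. The other comparisons were adjusted for the bare number, which libraries of different classes share. Then 3 members were called in type 1 MDM. Counts elsewhere were as without the block. Adjusting for the bare number, which is not a block by tumour, changed which members were called. In type 2 against type 1 transplanted MDM Arg2 lost its call (5.08, limma-trend, adjusted p = 0.067) and Chil3 gained one (7.76, 0.025). In type 1 MDM Arg2 lost its call (-4.62, 0.052). Levels of a few reads limit Retnla, Nos2, Arg2 and Il10 in microglia.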
